A study of Mus musculus with 14 samples.

Results

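The comparison was between the RNA of sorted mouse rods and that of sorted Nrl-/- photoreceptors, which make up 6 of the 14 samples of the series, and its members were all genes that passed a filter on low counts. The deposited table listed 24421 genes, of which 12327 were tested. The 3 rod libraries came from Nrl-eGFP mice and the 3 Nrl-/- libraries from Nrl-eGFP;NrlKO mice, both on a C57BL/6 background and 8 weeks old. Both groups carried the same Nrl-driven eGFP reporter and were sorted once for GFP, so the gate marks cells in which that promoter is active. In adult Nrl-/- retinas with this reporter the study saw GFP fall from the periphery to the centre. Whether the gate therefore drew unevenly on regions of those retinas was not tested. By the study's records the mice of these RNA libraries were male and several retinas were pooled for a library, and cDNA was amplified from a small amount of RNA. The other 8 samples measured open chromatin, and the 4 of them made from rods and Nrl-/- photoreceptors are used once, near the end. Phototransduction and opsin genes served only to check the labels, and the account concerns the other pathways and gene families.

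Rods respond to dim light and cones to bright light, and the mouse retina holds many more rods than cones. Nrl encodes a leucine zipper transcription factor that directs photoreceptor precursors to the rod fate, and Nr2e3, an orphan nuclear receptor, acts below it to hold cone genes down. Without Nrl the cells that would have become rods develop instead as cells resembling short-wavelength cones, which is why the study called them blue cones. Apart from their visual cascades, rods and cones are known to differ in the packing of their nuclei, the shape of their synaptic terminals and their membrane currents.

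Reads assigned to genes totalled 18376770 to 26312895 per library. In CPM, counts scaled to library size and by the trimmed mean method TMM, Nrl stood at 599, 845 and 745 CPM in rods 1 to 3 and 34.5, 39.3 and 24.6 CPM in Nrl-/- 1 to 3. All 3 rod libraries lay above all 3 Nrl-/- libraries, with a log2 fold change, rods minus Nrl-/-, of 4.48 ± 0.20 (adjusted p = 1.04e-08), the standard error following the sign ±. Gnat1, the rod transducin, averaged 25665 ± 4065 CPM (SD) across rods and 53.8 ± 12.8 CPM across Nrl-/- libraries. Gnat2, the cone transducin, averaged 48.3 ± 2.16 CPM (SD) across rods and 8396 ± 902 CPM across Nrl-/- libraries, so each label matched its defining genes. Reads that fell outside any annotated gene took 20.02% to 24.5% of each rod library and 10.4% to 19.5% of each Nrl-/- library. The 10 genes with the most reads took 19.97% to 23.5% of the assigned reads in rods and 14.3% to 14.9% in Nrl-/- photoreceptors, and RNA integrity was lower for the rod preparations in the study's records. The part of these differences in the results was not tested.

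A gene was called when its fold change exceeded 2 in either direction at a Benjamini-Hochberg adjusted p under 0.05 over all genes tested, by the quasi-likelihood model of edgeR with glmTreat. Of the 12327 genes, 848 were higher in rods (6.88%) and 1635 were higher in Nrl-/- photoreceptors (13.3%), together 20.1%. The libraries of the groups did not overlap for 8257 genes, which is 67% of those tested, and for all 2483 called genes. Against a fold change of 1 in place of 2, 3639 genes passed toward rods (29.5%) and 3866 toward Nrl-/- photoreceptors (31.4%), together 60.9%, so the groups held nearly equal numbers of changed genes, while large changes were more often toward Nrl-/-. The excess differed with the level of the gene. Among genes averaging under 1 CPM, 23.2% were called higher in Nrl-/- photoreceptors and 6.35% in rods. Among genes averaging at least 100 CPM, the shares were 9.60% and 8.75%. Of the called genes, 45 had no read in any rod library and 9 had none in any Nrl-/- library. The low-count filter keeps a gene that reaches its minimum in 1 group alone, so families of weakly expressed genes enter with members that had to differ.

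**Figure D1:**
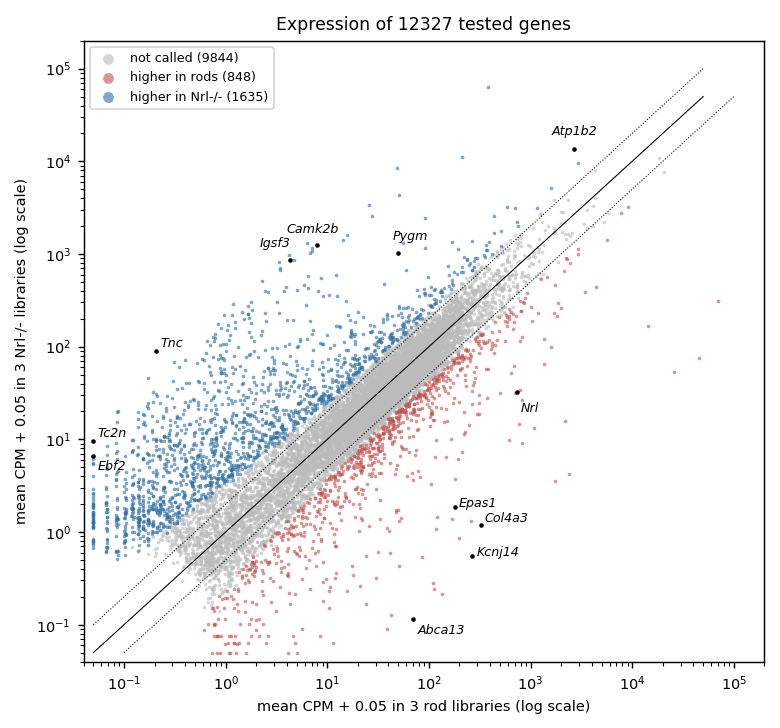
Mean CPM of each tested gene in the 3 rod libraries (horizontal axis) and the 3 Nrl-/- libraries (vertical axis), both on log scales after adding 0.05, with called genes coloured, a solid line at equality and dotted lines at a fold change of 2. The 1635 genes higher in Nrl-/- photoreceptors spread far to the left at low rod levels, where 45 of them have no rod read.

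The gene groups fell along a gradient. At its Nrl-/- end were genes of the cell surface and of excitability, namely neurotransmitter receptors (median log2 fold change -1.91), potassium channels (-1.52), cadherins (-1.16) and guidance molecules (-1.02), together with interferon response genes (-1.31). At the rod end were histones (0.87), cohesin and condensin genes (0.70), ribosomal proteins (0.53), numbered zinc finger genes (0.49) and cilium genes (0.40). The median over all genes tested was 0.01. A median weighs members alike whatever their level, and the summed level of listed histone genes was on average lower in rods (2024 against 2448 CPM). Of the members listed, 42 of 132 receptors, 30 of 100 potassium channels and 66 of 117 cadherins passed the low-count filter. So did 76 of 140 guidance molecules, 64 of 162 interferon genes and 27 of 84 histone genes. Members that passed through 1 group alone had to differ, and the part of the filter in the group medians was not tested. Respiratory chain, proteasome, mitochondrial ribosome and cholesterol genes had medians of -0.22, -0.26, -0.09 and -0.06 and few called members, with 2 of 76, 1 of 45, 1 of 77 and 0 of 26 members called by edgeR, each of them higher in Nrl-/- photoreceptors. Against a fold change of 1, edgeR called 7, 4, 10 and 4 members of these groups higher in rods and 18, 17, 19 and 7 higher in Nrl-/- photoreceptors. Medians also moved with exon length over all genes, from -0.09 in the shortest of 4 equal bins to 0.22 in the longest, and the part of length in the group medians was not tested.

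**Figure D2:**
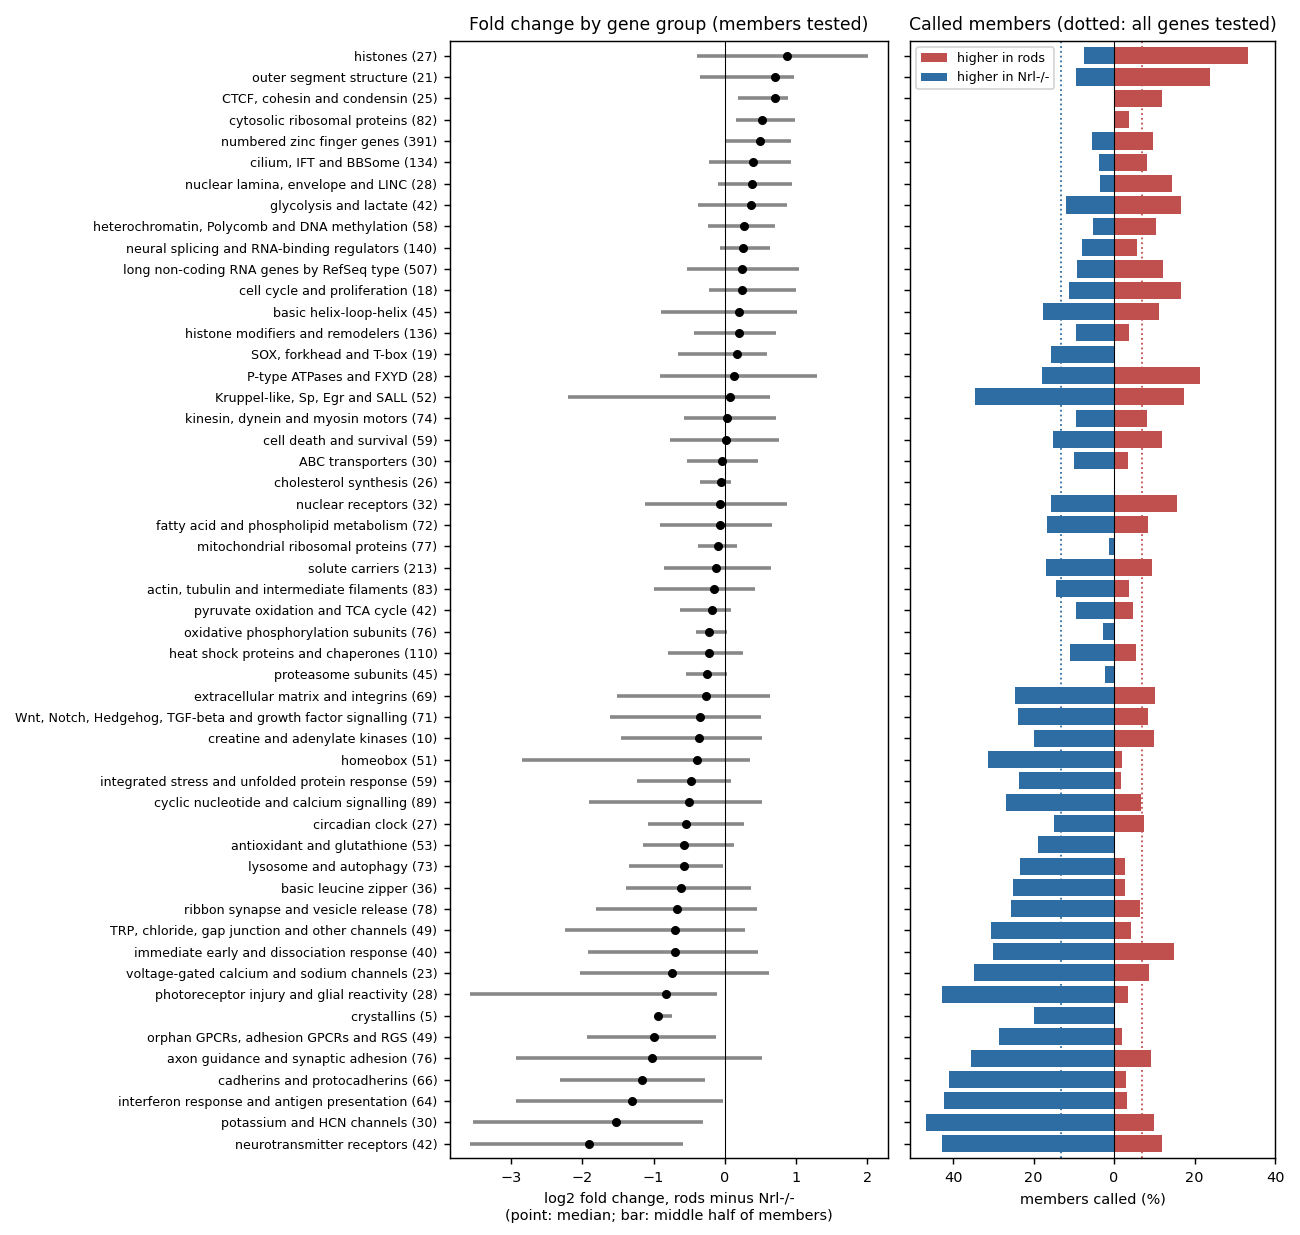
Gene groups ordered by median log2 fold change, rods minus Nrl-/- (left, point, with the interquartile range of the members as a bar), and the percentage of tested members called in each direction (right), with dotted lines at 6.88% and 13.3%, the shares over all genes tested. Receptors, potassium channels and interferon genes lie at the bottom and histones, with a median of 0.87, at the top.

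Transcription factors and their partners differed in both directions, with Samd11, Epas1, Mef2c and Esrrb high in rods and Six6, Rxrg, Sall3 and Stat5b high in Nrl-/- photoreceptors. Samd11, a SAM domain protein of photoreceptor nuclei that acts with Polycomb, measured 921, 719 and 846 CPM in rods 1 to 3 and 33.3, 25.9 and 21.4 CPM in Nrl-/- 1 to 3. Its log2 fold change was 4.95 ± 0.19 (adjusted p = 1.85e-09), and its relative Samd7 changed by 2.13. Epas1, the hypoxia-inducible factor HIF-2 alpha, measured 179, 172 and 186 CPM in rods 1 to 3 and 1.03, 3.08 and 1.27 CPM in Nrl-/- 1 to 3. Rods were thus high in every library, with a log2 fold change of 6.64 ± 0.30 (adjusted p = 5.89e-09), whereas Hif1a, the related HIF-1 alpha, averaged 632 against 333 CPM in rods and Nrl-/- photoreceptors (0.92) and was not called. Mef2c, a MADS-box factor, changed by 4.47 and Esrrb, an orphan receptor known for its role in rod survival, by 4.12. Ppara and Ppard, receptors for fatty acids, changed by 2.04 and 1.73.

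On the Nrl-/- side, 16 of 51 tested homeobox genes, of 196 listed, were higher and 1 was lower (33.3%, beside 20.1% of all genes). The lower gene was Vax2 (1.99), known for ventral patterning of the retina. Six6, an eye field gene, measured 1.21, 1.93 and 1.72 CPM in rods 1 to 3 and 209, 235 and 235 CPM in Nrl-/- 1 to 3. Every Nrl-/- library was higher (-7.12 ± 0.18, adjusted p = 6.35e-11). Rxrg, the retinoid receptor found in cones, measured 0.709, 0.835 and 1.17 CPM in rods 1 to 3 and 219, 228 and 215 CPM in Nrl-/- 1 to 3 (-7.93 ± 0.18, adjusted p = 4.33e-11). Sall3, a zinc finger factor known from short-wavelength cones, changed by -7.06 and Stat5b, a cytokine signal transducer, by -5.92. Ebf2 and Sall4 had no read in any rod library, and against a floor of 3 reads per library were at least 41.9-fold higher and at least 16.3-fold higher. En2 was likewise at least 9.35-fold higher. Pou4f1, a factor known from ganglion cells, was called on this side at a low level and averaged 0.0854 against 6.65 CPM in rods and Nrl-/- photoreceptors. The general photoreceptor factors were not called. Crx averaged 3343 against 2132 CPM (0.65), Otx2 371 against 362 CPM (0.04) and Neurod1 2161 against 2240.3 CPM (-0.05), and the libraries of the groups overlapped for Otx2 and Neurod1.

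Numbered zinc finger genes, most of which encode KRAB or BTB proteins that repress transcription, leaned the other way. Of 391 tested, 38 were called toward rods and 21 toward Nrl-/- photoreceptors (15.1%, beside 20.1% of all genes). Against a fold change of 1 the counts were 212 and 48. The differences were small for most members, with a median of 0.49. Prdm9 averaged 147 against 42.6 CPM, a log2 difference of 1.79, Prdm10 changed by 1.55 and Prdm2 by 1.39, whereas Prdm1, a repressor used in photoreceptor fate choice, changed by -1.38.

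Among genes of nuclear structure Lmna, which encodes lamins A and C, measured 0.253, 0.104 and 0.223 CPM in rods 1 to 3 and 6.20, 8.12 and 7.60 CPM in Nrl-/- 1 to 3, a log2 fold change of -5.20 ± 0.38 (adjusted p = 8.82e-07). Lmnb1, the gene of lamin B1, lay on the other side at 7.85, 8.09 and 6.34 CPM in rods 1 to 3 and 1.66, 0.898 and 0.823 CPM in Nrl-/- 1 to 3 (2.72 ± 0.32, adjusted p = 2.40e-04). The nesprins, which tie the nuclear envelope to the cytoskeleton, went with Lmnb1: Syne3 changed by 2.71, Syne1 by 1.83 and Syne2 by 1.43, although the call of Syne2 was lost without rod 3 (1.38), without Nrl-/- 2 (1.31) or with DESeq2 (1.41). In all 4 lamina and envelope genes were called toward rods and 1 toward Nrl-/- photoreceptors, of 28 tested (17.9%, beside 20.1% of all genes).

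Of 27 histone genes, 9 were called toward rods and 2 toward Nrl-/- photoreceptors (40.7%, beside 20.1% of all genes). Hist1h1c, a linker histone, measured 54.6, 86.5 and 87.3 CPM in rods 1 to 3 and 10.8, 15.1 and 11.3 CPM in Nrl-/- 1 to 3 (2.62 ± 0.20, adjusted p = 8.30e-06). Cenpa, the histone of centromeres, averaged 4.68 against 0.579 CPM. Most other members that were called lay below 5 CPM in both groups, and histone genes share sequence, so their counts depend on how reads with several matches were handled. The histone variant H2afy2 went toward Nrl-/- photoreceptors (-2.19). H3f3b, the histone gene with the most reads, averaged 1376 against 1826 CPM (-0.41), was not called and overlapped between the groups. All listed histone genes summed to 1605, 2463 and 2003 CPM in rods 1 to 3. In Nrl-/- 1 to 3 they summed to 2202, 2533 and 2610 CPM, so the group median does not describe the total. The TET enzymes, which oxidize methylated cytosine, divided: Tet3 measured 226, 213 and 235 CPM in rods 1 to 3 and 56.6, 39.8 and 34.3 CPM in Nrl-/- 1 to 3 (2.37 ± 0.17, adjusted p = 6.28e-06), and Tet1 averaged 1.09 against 16.5 CPM (-3.91). Of 136 modifiers and remodelers 13 were higher in Nrl-/- photoreceptors and 5 in rods, in all 13.2% beside 20.1% of all genes. Among those called was Prmt8, an arginine methyltransferase of neurons, at 1.64 against 144 CPM in rods and Nrl-/- photoreceptors (-6.46). Hmgn3, a nucleosome binding protein, changed by -3.78.

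Several enzymes of sugar use differed by isoform, one being higher in rods and its relative in Nrl-/- photoreceptors. Of 42 glycolysis genes, 7 were called toward rods and 5 toward Nrl-/- photoreceptors (28.6%, beside 20.1% of all genes). Pygm, the muscle form of glycogen phosphorylase, measured 52.6, 44.8 and 49.8 CPM in rods 1 to 3 and 1002, 1103 and 941 CPM in Nrl-/- 1 to 3. Nrl-/- libraries were all far above rods (-4.37 ± 0.14, adjusted p = 4.03e-10), and the liver form Pygl followed at -3.21, while the groups overlapped for the brain form Pygb (38.3 against 38.00 CPM, 0.01). Phosphofructokinase, which commits sugar to glycolysis, was split by isoform. Pfkp, the platelet form, measured 535, 658 and 501 CPM in rods 1 to 3 and 113, 114 and 122 CPM in Nrl-/- 1 to 3 (2.28 ± 0.13, adjusted p = 1.07e-06). Pfkm, the muscle form, measured 20.8, 17.6 and 17.1 CPM in rods 1 to 3 and 109.8, 102 and 106 CPM in Nrl-/- 1 to 3 (-2.52 ± 0.12, adjusted p = 1.62e-07). The liver form Pfkl averaged 676 against 496 CPM and was not called. The enzymes that make the activator of phosphofructokinase were higher in rods, Pfkfb2 by 2.44 and Pfkfb3 by 3.36. Pdk1, a kinase that turns off pyruvate dehydrogenase, measured 17.5, 12.6 and 8.62 CPM in rods 1 to 3 and 1.303, 1.72 and 1.65 CPM in Nrl-/- 1 to 3 (3.05 ± 0.29, adjusted p = 3.18e-05), and the lactate exporter Slc16a3 changed by 1.71. Pkm and Ldha, with 4307 against 4018 CPM and 2055 against 1718 CPM in rods and Nrl-/- photoreceptors, were not called, and neither was Hk2 (-0.83). Eno1 was called higher in rods (2.76), but it has a near-identical copy, Eno1b, with which it shares reads.

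Of 42 genes of the citric acid cycle 2 were called toward rods and 4 toward Nrl-/- photoreceptors (14.3%, beside 20.1% of all genes). Idh3a, a subunit of isocitrate dehydrogenase, measured 213, 296 and 232 CPM in rods 1 to 3 and 642, 779.8 and 839.8 CPM in Nrl-/- 1 to 3 (-1.61 ± 0.15, adjusted p = 0.00133). Ckb, brain creatine kinase, which buffers ATP, measured 563, 621 and 556 CPM in rods 1 to 3 and 2649.8, 3179 and 3729 CPM in Nrl-/- 1 to 3 (-2.46 ± 0.15, adjusted p = 1.33e-06), and the creatine carrier Slc6a8 changed by -2.77, so both were higher in Nrl-/- photoreceptors.

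Among lipid genes the fatty acid elongases, a family singled out after the values were seen, had 4 of 6 tested members called higher in Nrl-/- photoreceptors. Elovl6 measured 3.64, 4.49 and 5.45 CPM in rods 1 to 3 and 208, 202 and 173 CPM in Nrl-/- 1 to 3 (-5.42 ± 0.17, adjusted p = 3.27e-10). Elovl5 changed by -6.07 and Elovl7 by -5.94, whereas Elovl4, the elongase of very long chain fatty acids in photoreceptors, averaged 2576 against 1674 CPM (0.62) and was not called. Fabp7, a fatty acid binding protein, measured 0.810, 1.62 and 0.890 CPM in rods 1 to 3 and 192, 237 and 237 CPM in Nrl-/- 1 to 3 (-7.64 ± 0.22, adjusted p = 1.69e-10). Over the whole group 12 of 72 genes were higher in Nrl-/- photoreceptors and 6 in rods, and the median was -0.07. Of 53 antioxidant genes 18.9% were called, beside 20.1% of all genes. In rods edgeR called 0, where 5 passed against a fold change of 1, and it called 10 higher in Nrl-/- photoreceptors. They included the glutathione transferase Gstm5 (-4.14) and the methionine sulfoxide reductase Msrb2 (-4.01). Gstm genes are close paralogs and can share reads.

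**Figure D3:**
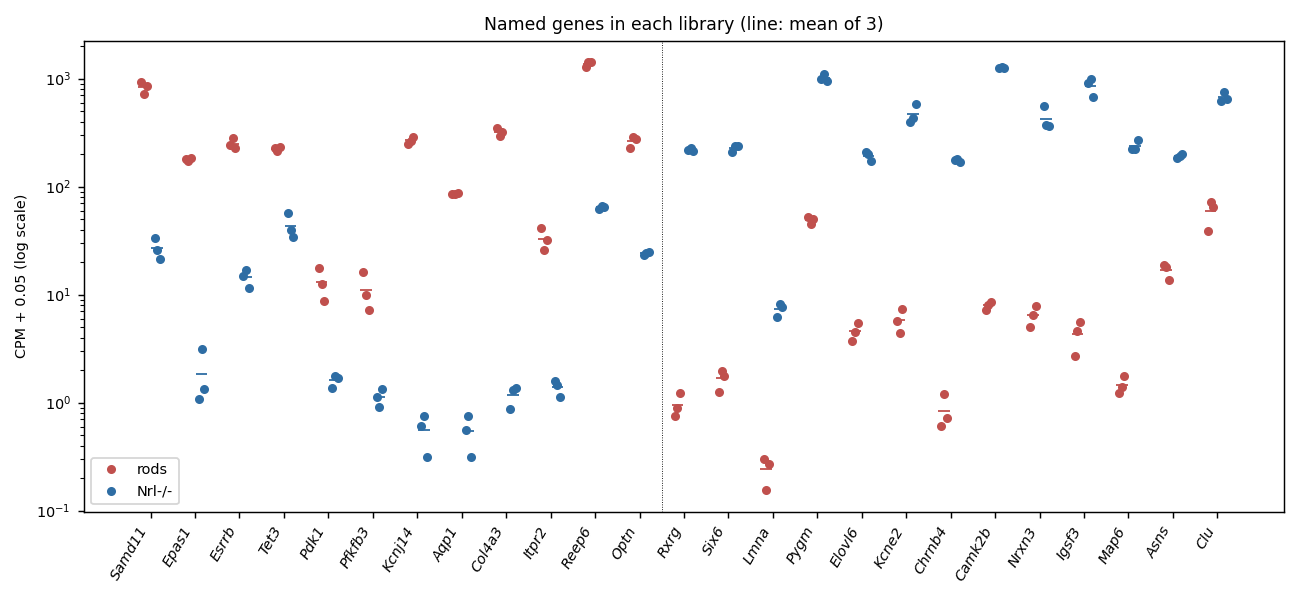
CPM plus 0.05, on a log scale, of 25 genes in each of the 3 rod and 3 Nrl-/- libraries, with a line at the mean of each group. In the first 12 genes every rod library lies above every Nrl-/- library, and in the other 13 the order is the reverse.

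Potassium channel genes were higher in Nrl-/- photoreceptors in 14 of 30 cases and in rods in 3 (56.7%, beside 20.1% of all genes). Kcnj14, an inward rectifier, led the rod side with 248, 266 and 290.4 CPM in rods 1 to 3 and 0.553, 0.703 and 0.262 CPM in Nrl-/- 1 to 3 (9.04 ± 0.23, adjusted p = 6.35e-11). Kcnv2, a subunit of the channel that carries the photoreceptor inner segment current, changed by 1.23. The call of Kcnv2 was lost without rod 2 (1.24), rod 3 (1.18), Nrl-/- 2 (1.22) or Nrl-/- 3 (1.22), with other scalings (RLE 1.21, library totals 1.16), at a mean of at least 1 CPM (1.22), with DESeq2 (1.21) and with the replicate block (1.23). Kcne2, an accessory subunit, measured 5.67, 4.38 and 7.34 CPM in rods 1 to 3 and 395, 429 and 576 CPM in Nrl-/- 1 to 3 (-6.33 ± 0.23, adjusted p = 8.42e-10). Kcng4, a silent subunit, changed by -5.09, the beta subunit Kcnab1 by -5.60 and the calcium-activated channel Kcnma1 by -3.53. Kcnj3, a G protein-gated rectifier, had no rod read and was at least 11.2-fold higher in Nrl-/- photoreceptors. Kcnf1 was at least 6.76-fold higher by the same bound. Of other channels, the proton channel Otop3 measured 1.92, 2.19 and 2.50 CPM in rods 1 to 3 and 479, 522 and 545 CPM in Nrl-/- 1 to 3 (-7.87 ± 0.16, adjusted p = 3.41e-11). Cacna1h, a low-voltage calcium channel, changed by -6.47 and Asic4 by -7.25, while Cacna1f, the calcium channel of the photoreceptor terminal, averaged 613 against 359 CPM (0.77) and was not called. Clca1, listed in the same group but not itself a channel, changed by -7.72. Aqp1, a water channel, was the opposite case with 85.2, 85.5 and 87.6 CPM in rods 1 to 3 and 0.513, 0.703 and 0.262 CPM in Nrl-/- 1 to 3 (7.44 ± 0.22, adjusted p = 2.20e-10).

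Neurotransmitter receptors had the lowest median of the groups plotted. Of 42 tested among 132 listed, 18 were higher in Nrl-/- photoreceptors and 5 in rods (54.8%, beside 20.1% of all genes). Of 9 nicotinic acetylcholine receptor subunits tested, also singled out after the values were seen, 6 were higher in Nrl-/- photoreceptors and 1 in rods. Chrnb4 measured 0.557, 1.15 and 0.668 CPM in rods 1 to 3 and 177, 178 and 169 CPM in Nrl-/- 1 to 3 (-7.78 ± 0.20, adjusted p = 7.15e-11). Chrna6 and Chrna3 changed by -6.39 and -5.80, Chrnb3 by -3.68 and Chrnb2 by -2.24. Gabrd, a GABA-A receptor subunit, changed by -6.09. Adrb1, a beta-adrenergic receptor, changed by -6.34. The melatonin receptor Mtnr1a had no rod read and was at least 12.5-fold higher. On the rod side were Drd4, the dopamine receptor known from photoreceptors, with 195, 215 and 200.02 CPM in rods 1 to 3 and 51.7, 53.4 and 62.3 CPM in Nrl-/- 1 to 3 (1.87 ± 0.12, adjusted p = 1.04e-05), the NMDA receptor subunit Grin2d with 9.11 against 0.130 CPM in rods and Nrl-/- photoreceptors, and Chrnb1, the muscle-type subunit (2.70).

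Of 213 solute carriers 36 were higher in Nrl-/- photoreceptors and 20 in rods, in all 26.3% beside 20.1% of all genes. Slc38a1, which takes up glutamine, measured 7.49, 8.14 and 8.68 CPM in rods 1 to 3 and 482, 358 and 367 CPM in Nrl-/- 1 to 3 (-5.63 ± 0.17, adjusted p = 2.20e-10), and Slc24a4, a sodium-calcium-potassium exchanger, changed by -6.28. Abca13, an ABC transporter, had the largest fitted fold change in rods, with 67.3, 73.3 and 69.99 CPM in rods 1 to 3 and 0.118, 0 and 0.0749 CPM in Nrl-/- 1 to 3 (9.97 ± 0.29, adjusted p = 1.75e-10). Abcb4, a phospholipid floppase, lay on the other side (-7.98). Atp1b2, the beta-2 subunit of the sodium pump, measured 2054, 3092 and 2933 CPM in rods 1 to 3 and 12411, 14546 and 13757 CPM in Nrl-/- 1 to 3 (-2.33 ± 0.18, adjusted p = 9.47e-06), so every Nrl-/- library lay above every rod library. The phospholipid flippases were divided, with Atp8a1, Atp8a2 and Atp11b higher in rods (1.64, 1.67 and 1.56) and Atp8b2 and Atp10d higher in Nrl-/- photoreceptors (-2.04 and -1.97).

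Synaptic terminal genes were higher in Nrl-/- photoreceptors in 20 of 78 cases and in rods in 5 (32.1%, beside 20.1% of all genes). Complexins, which clamp the fusion of vesicles, were split: Cplx4 averaged 3591 against 2962 CPM (0.28) and was not called, Cplx3 measured 44.5, 63.3 and 60.3 CPM in rods 1 to 3 and 1123, 1361 and 1451 CPM in Nrl-/- 1 to 3 (-4.55 ± 0.18, adjusted p = 2.47e-09), and Cplx2 changed by -6.96. Nrxn3, a presynaptic adhesion molecule, measured 4.96, 6.37 and 7.85 CPM in rods 1 to 3 and 552, 369 and 360.4 CPM in Nrl-/- 1 to 3 (-6.07 ± 0.23, adjusted p = 1.57e-09). Nrl-/- libraries were also higher for Syngr3 (-3.76), Sv2a (-2.58), Rab3a (-2.08) and Syp (-1.79), all proteins of the vesicle. Sv2c, a relative of Sv2a, was read in rods alone: it had no read in any Nrl-/- library, averaged 4.93 against 0 CPM in rods and Nrl-/- photoreceptors, and was at least 42.5-fold higher in rods. Elfn2 changed by -5.98, whereas Elfn1, which organizes the rod synapse, averaged 36.1 against 27.7 CPM (0.38) and was not called. Ribbon and active zone proteins gave small values, with Ctbp2 at -0.90, Bsn at 0.84 and Pclo at 0.56, none of them called, and Rims2 at 1.305, which was called.

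Second messenger genes followed the same direction, with 24 of 89 higher in Nrl-/- photoreceptors and 6 in rods (33.7%, beside 20.1% of all genes). Camk2b, a calcium/calmodulin kinase, measured 7.19, 8.04 and 8.51 CPM in rods 1 to 3 and 1242, 1275 and 1254 CPM in Nrl-/- 1 to 3 (-7.31 ± 0.15, adjusted p = 3.41e-11). Cabp5, a calcium-binding protein also used as a marker of bipolar cells, measured 12.2, 11.8 and 18.4 CPM in rods 1 to 3 and 1325, 1515 and 1366 CPM in Nrl-/- 1 to 3 (-6.63 ± 0.20, adjusted p = 2.22e-10). Adcy2, an adenylate cyclase, changed by -7.64, and the phosphodiesterase Pde1c by -5.35. The inositol trisphosphate receptors were exchanged. Itpr2 measured 41.1, 25.8 and 31.8 CPM in rods 1 to 3 and 1.54, 1.41 and 1.09 CPM in Nrl-/- 1 to 3 (4.61 ± 0.23, adjusted p = 3.40e-08). Itpr3 measured 0.202, 0.0522 and 0.0556 CPM in rods 1 to 3 and 16.7, 14.6 and 12.9 CPM in Nrl-/- 1 to 3 (-7.05 ± 0.37, adjusted p = 3.40e-08). Prkca, protein kinase C alpha, averaged 52.6 against 8.41 CPM and was higher in rods (2.64). Among G protein-coupled receptors, Lgr5, a receptor for R-spondins, averaged 0.973 against 153 CPM in rods and Nrl-/- photoreceptors (-7.29).

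Adhesion and guidance genes were called mainly toward Nrl-/- photoreceptors. Of 76 guidance and synaptic adhesion genes 27 were higher there and 7 in rods, and of 66 cadherins the counts were 27 and 2. In all 44.7% and 43.9% were called, beside 20.1% of all genes. Igsf3, an immunoglobulin superfamily member, measured 2.63, 4.54 and 5.56 CPM in rods 1 to 3 and 904, 993 and 677 CPM in Nrl-/- 1 to 3 (-7.66 ± 0.27, adjusted p = 6.91e-10). Nrcam, a neuronal adhesion molecule, measured 3.19, 4.07 and 3.84 CPM in rods 1 to 3 and 419, 394 and 382 CPM in Nrl-/- 1 to 3 (-6.75 ± 0.15, adjusted p = 4.33e-11). The ephrin receptor Epha10 changed by -7.25 and Epha8 by -7.38. Cadm3 and Cadm1, related adhesion molecules, moved apart (-4.22 and 1.98). So did the netrin receptors Unc5b (-6.63) and Unc5c, which averaged 1.17 against 0.0132 CPM with a ratio of 90.1 (95% counting interval 15.6 to 3610.0) in favour of rods. Cdhr1, the cadherin of the outer segment base, measured 897, 1380.1 and 1235 CPM in rods 1 to 3 and 2994, 3081 and 3289 CPM in Nrl-/- 1 to 3 (-1.42 ± 0.16, adjusted p = 0.0152), and its call was lost without rod 1 (-1.25). The protocadherins Pcdhac1 and Pcdhac2 were also higher in Nrl-/- photoreceptors (-5.41 and -7.59), but the genes of that cluster share their last exons, so reads cannot be fully assigned.

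In the matrix group 17 of 69 genes were higher in Nrl-/- photoreceptors and 7 in rods (34.8%, beside 20.1% of all genes). The chains of type IV collagen, the sheet-forming collagen of basement membranes, were divided by gene pair. Col4a3 measured 352, 297 and 317 CPM in rods 1 to 3 and 0.829, 1.25 and 1.31 CPM in Nrl-/- 1 to 3 (8.15 ± 0.19, adjusted p = 4.33e-11). Its head-to-head neighbour Col4a4 averaged 10.5 against 0.103 CPM (6.59). Col4a5 and Col4a6, the corresponding pair on the X chromosome, were higher in Nrl-/- photoreceptors, with 0.488 against 25.2 CPM (-5.66) and 0.177 against 9.88 CPM (-5.77). Tnc, the matrix glycoprotein tenascin C, measured 0.253, 0.0522 and 0.167 CPM in rods 1 to 3 and 99.2, 95.2 and 77.3 CPM in Nrl-/- 1 to 3 (-9.11 ± 0.27, adjusted p = 1.86e-10). Of 71 genes of growth factor pathways 17 were higher in Nrl-/- photoreceptors and 6 in rods (32.4%, beside 20.1% of all genes). The receptor Notch2 changed by -5.25, and its ligand Jag1 averaged 1209.8 against 836 CPM (0.53) and was not called. Inhbb, a subunit of activin, had no rod read and averaged 0 against 1.91 CPM. The Sprouty inhibitors of receptor kinases took opposite sides, Spry2 at 3.47 and Spry4 at -7.11.

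Of 134 cilium genes 11 were called higher in rods and 5 higher in Nrl-/- photoreceptors (11.9%, beside 20.1% of all genes). Cep164, which docks the mother centriole to the membrane, measured 195, 193 and 203 CPM in rods 1 to 3 and 33.2, 23.3 and 19.01 CPM in Nrl-/- 1 to 3 (2.97 ± 0.18, adjusted p = 5.68e-07). Arl13b, a small GTPase of the ciliary membrane, changed by 2.57. On the other side Cep112 changed by -4.99 and Rsph9, a radial spoke protein, by -5.21. Of 21 outer segment structure genes 5 were called toward rods and 2 toward Nrl-/- photoreceptors (33.3%, beside 20.1% of all genes). Rp1, a microtubule protein of the axoneme, measured 3413, 3592 and 3255 CPM in rods 1 to 3 and 449, 351 and 369 CPM in Nrl-/- 1 to 3 (3.13 ± 0.14, adjusted p = 2.72e-08), and Rom1, a tetraspanin of the disc rim, changed by 2.02. The interphotoreceptor matrix genes Impg1 (0.71) and Impg2 (-0.34) were not called. In the cytoskeleton the microtubule protein Map6 measured 1.16, 1.36 and 1.72 CPM in rods 1 to 3 and 224, 223 and 269 CPM in Nrl-/- 1 to 3 (-7.40 ± 0.18, adjusted p = 6.35e-11). The red cell spectrin Sptb and the thymosin Tmsb10 were also higher in Nrl-/- photoreceptors (-6.20 and -5.43), and the kinesin Kif1b was higher in rods (1.55).

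Of 59 genes of the integrated stress and unfolded protein responses, 14 were higher in Nrl-/- photoreceptors and 1 in rods. That share of 25.4% stood beside 20.1% of all genes. Those called included enzymes and carriers of amino acid supply (Asns, Psat1, Phgdh, Slc7a3 and Slc7a5) and proteins of the endoplasmic reticulum (Hspa5, Herpud1 and Pdia6). Asns, asparagine synthetase, measured 18.7, 17.8 and 13.7 CPM in rods 1 to 3 and 186, 192 and 201 CPM in Nrl-/- 1 to 3 (-3.52 ± 0.14, adjusted p = 6.10e-09). Psat1, of serine synthesis, changed by -3.63, and Chac1, which degrades glutathione, by -5.94. Hspa5, the main chaperone of the reticulum, measured 283, 547 and 481 CPM in rods 1 to 3 and 1071, 1931 and 2001 CPM in Nrl-/- 1 to 3 (-1.93 ± 0.27, adjusted p = 0.00291). The factors that drive these responses were not called, with Atf4 at 248 against 169.5 CPM (0.55) and Ddit3 at 29.01 against 65.1 CPM (-1.17). Ddit4, an inhibitor of mTOR, was the rod member (1.86).

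The promoters of Asns and Chac1 are shown because they hold a pattern known from binding sites of ATF4 complexes, and because both RNA and accessibility were higher in Nrl-/- photoreceptors. TGATGNAA, searched on both strands, was present in the 300 bases around the start site (RefSeq, GRCm38.p6) of 12 of the 45 members of the list that had a promoter sequence (26.7%), against 248 of 9385 tested genes (2.64%). Among the 11 such members called higher in Nrl-/- photoreceptors it was present in 4 (Asns, Chac1, Herpud1 and Nupr1). The list was assembled by function, so its share beside all genes does not bear on the RNA difference. The 250 bases before the start of each gene follow, 5′ to 3′ on the strand of the gene, with the match, which in Chac1 is on the opposite strand, in capitals.
Asns, chr6:7693210-7693459, minus strand: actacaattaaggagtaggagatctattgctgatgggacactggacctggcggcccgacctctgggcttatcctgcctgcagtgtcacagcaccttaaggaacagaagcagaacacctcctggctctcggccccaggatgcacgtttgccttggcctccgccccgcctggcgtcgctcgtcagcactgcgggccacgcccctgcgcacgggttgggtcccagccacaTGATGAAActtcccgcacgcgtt
Chac1, chr2:119350992-119351241, plus strand: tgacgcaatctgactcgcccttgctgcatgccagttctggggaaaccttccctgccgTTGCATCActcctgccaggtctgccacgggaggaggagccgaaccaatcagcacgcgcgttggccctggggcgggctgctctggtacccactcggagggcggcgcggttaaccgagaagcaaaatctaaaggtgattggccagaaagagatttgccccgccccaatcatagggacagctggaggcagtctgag
Open chromatin elements at the Asns promoter gave 7.16 and 4.51 CPM in the rod libraries and 22.9 and 25.2 CPM in the Nrl-/- libraries. At Chac1 they gave 0.774 and 0.867 CPM in the rod libraries and 4.58 and 7.64 CPM in the Nrl-/- libraries. Both Nrl-/- libraries lay above both rod libraries at each promoter, and a match describes the letters only.

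Of 64 interferon and antigen presentation genes 27 were higher in Nrl-/- photoreceptors and 2 in rods (45.3%, beside 20.1% of all genes). The class I genes H2-D1 and H2-K1 averaged 12.9 against 166 CPM and 2.55 against 59.4 CPM in rods and Nrl-/- photoreceptors (-3.70 and -4.54), and as close paralogs can share reads. B2m, their light chain, measured 1.32, 0.939 and 1.89 CPM in rods 1 to 3 and 6.12, 8.63 and 15.8 CPM in Nrl-/- 1 to 3 (-2.88 ± 0.39, adjusted p = 6.10e-04), and the peptide transporter subunit Tap2 changed by -3.49. Irf5, an interferon regulatory factor, measured 0.202, 0 and 0.278 CPM in rods 1 to 3 and 30.99, 31.8 and 24.03 CPM in Nrl-/- 1 to 3 (-7.46 ± 0.38, adjusted p = 2.56e-08). Irf7, a factor of the same family, was higher in rods by 2.23, and without Nrl-/- 1 the count higher in rods was 5. The summed level of the list was 1104, 1195 and 1222 CPM in rods 1 to 3 and 1981, 1969 and 1831 CPM in Nrl-/- 1 to 3. The core of the interferon-stimulated response element, taken as TTTC repeated after any 2 bases, was searched on either strand. It was found in 15 of 47 list members with a promoter sequence (31.9%) and in 302 of 9385 tested genes (3.22%). Among the 19 such members called higher in Nrl-/- photoreceptors it was found in 6 (31.6%). This list was also assembled by function, so its share beside all genes does not bear on the RNA difference. The B2m promoter is printed as an example with the match, on the opposite strand, in capitals.
B2m, chr2:122147437-122147686, plus strand: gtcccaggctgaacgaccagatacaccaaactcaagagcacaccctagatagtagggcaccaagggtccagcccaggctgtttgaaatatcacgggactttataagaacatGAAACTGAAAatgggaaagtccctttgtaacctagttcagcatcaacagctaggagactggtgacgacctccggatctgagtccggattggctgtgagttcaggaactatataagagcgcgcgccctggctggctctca
Elements at the B2m promoter gave 1.55 and 1.73 CPM in the rod libraries and 42.04 and 42.1 CPM in the Nrl-/- libraries.

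Of 28 genes of injury and glial reactivity 12 were higher in Nrl-/- photoreceptors and 1 in rods (46.4%, beside 20.1% of all genes). Clu, clusterin, measured 39.1, 72.5 and 65.2 CPM in rods 1 to 3 and 617, 749.6 and 654 CPM in Nrl-/- 1 to 3 (-3.51 ± 0.21, adjusted p = 2.57e-07). Socs3, a feedback inhibitor of cytokine signals, changed by -5.73 and Stat3 by -1.62. Spp1, osteopontin, and Lgals3, galectin 3, had no rod read and were at least 38.00-fold higher and at least 8.26-fold higher. These bounds rest on the group mean, and both genes were highest in Nrl-/- 3. In Nrl-/- 1 to 3 Spp1 had 90, 54 and 331 reads and Lgals3 had 25, 13 and 65. Edn2, the endothelin known as an injury signal of photoreceptors, was higher in rods (2.25), and Gfap averaged 0.897 against 0.763 CPM (0.23) and was not called.

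Markers of microglia moved with these groups. Of 15 markers tested 10 were higher in Nrl-/- photoreceptors (66.7%, beside 20.1% of all genes), and the other 5 had negative values. All 17 listed markers, tested or not, summed to 17.8, 21.8 and 23.5 CPM in rods 1 to 3. In Nrl-/- 1 to 3 the sums were 58.5, 69.2 and 137 CPM, and sums of the other marker lists were formed in the same way. Nrl-/- 3 was the highest, and without it 8 microglia markers and 27 interferon genes were higher in Nrl-/- photoreceptors. The defining microglial genes Tmem119 and Csf1r had 0 to 5 and 20 to 28 reads per rod library and 24 to 64 and 119 to 161 reads per Nrl-/- library. Markers of Müller glia summed to 140.2, 191 and 228 CPM and 759.9, 922 and 871 CPM, with 2 of 15 markers, Clu and Apoe, called in that direction. The median of the list was 0.36, 9 of its members had positive values, Spc25 was called higher in rods (1.72), and Clu alone averaged 58.95 against 674 CPM. Glul and Rlbp1, which define Müller glia, averaged 20.4 against 15.9 CPM and 13.8 against 10.8 CPM in rods and Nrl-/- photoreceptors and overlapped. Markers of bipolar cells summed to 459, 502 and 524 CPM and 2118, 2363 and 2263 CPM, of which Cabp5 and Otx2 gave the most reads, while Grm6 and Trpm1, which define ON bipolar cells, averaged 3.51 against 6.37 CPM and 7.13 against 14.01 CPM and were not called. Markers of amacrine cells summed to 130.3, 111 and 126 CPM and 85.3, 82.7 and 73.4 CPM, and vascular markers to 14.2, 11.6 and 16.8 CPM and 6.71, 9.64 and 10.3 CPM. The amacrine sum was mostly Slc6a9, a glycine transporter, which averaged 117 against 76.1 CPM and was not called, and the groups overlapped for the other 4 tested members. Of the vascular markers Pecam1 was called higher in rods (3.86). The part of these cells in the results was not tested, and in sorted bulk cells more cells of a type and more RNA per cell cannot be told apart.

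**Figure D4:**
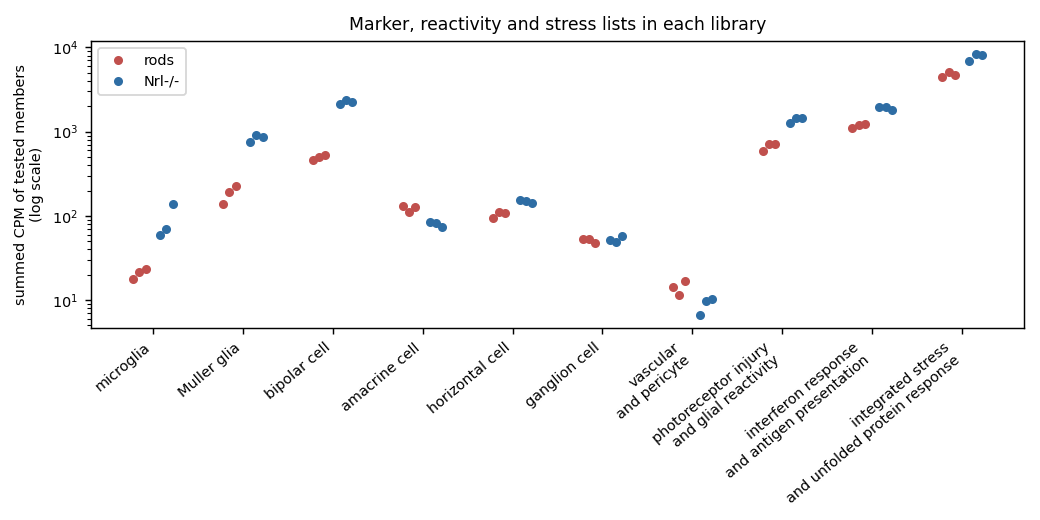
Summed CPM of all listed members, on a log scale, of 7 marker lists and 3 response lists in each of the 3 rod and 3 Nrl-/- libraries. The sums include members not tested, although the axis label names tested members. The microglia sum is 17.8 to 23.5 CPM in rods and 58.5 to 137 CPM in Nrl-/- libraries, and the amacrine sum is mostly that of Slc6a9. Clu gives most of the Müller glia sum in Nrl-/- libraries but not in rods.

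Immediate early genes, which respond within minutes to dissociation and to activity, were divided. Egr1 measured 11.7, 3.13 and 5.12 CPM in rods 1 to 3 and 169.8, 151 and 241 CPM in Nrl-/- 1 to 3 (-4.80 ± 0.38, adjusted p = 1.68e-06), and Fos and Junb changed by -1.62 and -2.09. Sgk1, a kinase induced by stress and steroids, measured 1844, 1969 and 1815 CPM in rods 1 to 3 and 288, 319 and 272 CPM in Nrl-/- 1 to 3 (2.68 ± 0.12, adjusted p = 6.63e-08), and Gadd45a changed by 2.84. Of 40 members 12 were higher in Nrl-/- photoreceptors and 6 in rods (45.0%, beside 20.1% of all genes).

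Genes of cell death and survival were called in both directions. Bcl2, which protects against death, was higher in rods (2.98) together with Bcl2l11, which promotes it (2.31), and Bcl2l1, another protector, was higher in Nrl-/- photoreceptors (-1.42). Over 59 genes of cell death the counts were 7 and 9 (27.1%, beside 20.1% of all genes), and the median was 0.01.

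Among chaperones and partners of the reticulum, Reep6, which shapes membranes in rods, measured 1278, 1414 and 1421 CPM in rods 1 to 3 and 61.5, 66.7 and 64.5 CPM in Nrl-/- 1 to 3 (4.42 ± 0.13, adjusted p = 2.38e-10), and its relative Reep5 changed by -1.77. Pdia5, a disulfide isomerase, changed by 4.99. Lysosomal genes were higher in Nrl-/- photoreceptors in 17 of 73 cases and in rods in 2 (26.0%, beside 20.1% of all genes). Glb1, beta-galactosidase, and Lipa, lysosomal acid lipase, changed by -4.35 and -4.33. Ctsb, cathepsin B, averaged 760.1 against 2018 CPM (-1.41), and its call was lost when rod 1 (-1.23), rod 3 (-1.42), Nrl-/- 2 (-1.35) or Nrl-/- 3 (-1.35) was left out, and with DESeq2 (-1.43). Optn, an autophagy receptor, was 1 of the 2 called toward rods, with 228, 291 and 274 CPM in rods 1 to 3 and 23.3, 24.1 and 24.9 CPM in Nrl-/- 1 to 3 (3.45 ± 0.13, adjusted p = 4.05e-09).

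Ribosomal protein genes shifted slightly toward rods. Of 82 tested, 35 were higher in rods against a fold change of 1 and 1 in Nrl-/- photoreceptors. Only 3 were called higher in rods (3.66%, beside 6.88% of all genes). That count was 1 without rod 1 and 0 with DESeq2. These genes have many processed pseudogenes, so counts of uniquely placed reads are uncertain for them. Of 140 splicing and RNA-binding genes 8 were called toward rods and 11 toward Nrl-/- photoreceptors (13.6%, beside 20.1% of all genes). Celf3, a neural regulator of splicing, changed by -4.82 and Srsf12 by -5.33. The clock outputs Dbp and Tef, both leucine zipper factors, were higher in Nrl-/- photoreceptors (-2.06 and -1.67), while Clock and Arntl, at 1.16 and 1.13, were not called. The time of day of collection is not given in the sources used here.

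Of 507 long non-coding genes tested, by RefSeq type, 62 were called toward rods and 47 toward Nrl-/- photoreceptors (21.5%, beside 20.1% of all genes). Gm7616 averaged 8.37 against 0.0256 CPM, with a ratio of 326 (95% counting interval 89.6 to 2700.0) in favour of rods. The gene 4930554H23Rik measured 0.101, 0.157 and 0.167 CPM in rods 1 to 3 and 29.3, 29.4 and 39.3 CPM in Nrl-/- 1 to 3 and was high in Nrl-/- photoreceptors. Malat1 averaged 20422 against 7642 CPM (1.42) and was not called, but was called without Nrl-/- 1 (1.81), with the replicate block (1.54) and without the low-count filter (1.44). The counting is not stated to use strand, so reads of such genes and of genes that overlap them on the other strand cannot be told apart.

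Some relatives were called in opposite directions, such as Pfkp and Pfkm or Itpr2 and Itpr3. Grouping tested genes by the root of their symbol gave 1616 families of 2 to 40 tested members. At least 1 member was called in each direction in 140 of these families. With 20.1% of all genes called, large families can hold both calls whatever the relation of their members, and the number expected was not computed. Families called both ways included glycosyltransferases, with St3gal1 at 6.21 and St3gal3 at -6.38, and the arginases Arg2 (2.25) and Arg1 (-2.70). The magnesium transporter Nipal2 changed by -6.94, and Nipal1 averaged 38.7 against 0.0392 CPM, with a ratio of 998 (95% counting interval 341 to 4840.0) in favour of rods. Cap1 and Cap2, which act on actin, changed by 2.52 and -6.79. A shared root is a naming convention, and protein identity between members was not computed.

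The neighbours of Nrl on chromosome 14 were examined because the deletion lies there. Dhrs4 averaged 8.60 against 8.10 CPM in rods and Nrl-/- photoreceptors (0.09) and Dcaf11 averaged 238 against 263 CPM (-0.14), and neither was called. Cpne6, a calcium-dependent membrane binding protein, averaged 1.20 against 18.3 CPM (-3.92), and Pck2, mitochondrial phosphoenolpyruvate carboxykinase, 5.02 against 15.1 CPM (-1.59). Within 1 Mb of Nrl 8 of 38 tested genes were higher in Nrl-/- photoreceptors (21.1%) and 1 in rods. Over the autosomes and X the share higher in Nrl-/- photoreceptors ran from 10.3% on chromosome 8 to 19.0% on chromosome 6.

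Finally, RNA was set beside open chromatin in 2 ATAC-seq libraries each of rods and Nrl-/- photoreceptors, which hold 2402513 to 5770075 counts in 53204 elements of 200 bp. Elements from 1000 bp before to 100 bp after a start site were compared on the scale log2(CPM + 1), with no test. For genes with higher RNA in Nrl-/- photoreceptors the median promoter element stood at 3.13 and 3.17 in rods 1 and 2 and at 4.24 and 4.29 in Nrl-/- 1 and 2. For genes with higher RNA in rods the medians were 5.29 and 5.29 in rods and 4.79 and 4.74 in Nrl-/- libraries. Genes not called lay at 5.22 and 5.13 in rods and 5.06 and 5.01 in Nrl-/- libraries. An element was counted once for each gene whose window it met, so the 10126 elements gave a larger number of gene-element pairs. Over these pairs the median difference, rods minus Nrl-/-, was -0.78 for 1217 pairs of the first class and 0.31 for 711 of the second. It was 0.14 for the 9106 pairs of genes not called. The spread between libraries of a cell type was 0.154, 0.134 and 0.125 in the same order. That spread was taken from the median squared difference over pairs. It is not an SD and gives little weight to the pairs that differed most. Genes higher in Nrl-/- photoreceptors had weaker promoter elements in both cell types than the other classes. Median G+C in the promoter windows was 60.7% for genes higher in rods and 60.3% for genes higher in Nrl-/- photoreceptors, and the median number of CpG in 300 bases was 19 and 16, beside 20 over all genes with a window.

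**Figure D5:**
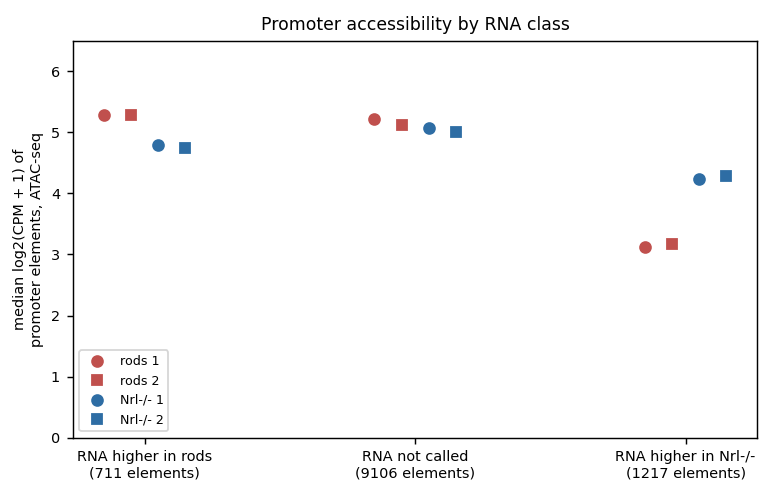
Median log2(CPM + 1) of ATAC-seq promoter elements, by library, for genes higher in rods (711 elements), genes not called (9106) and genes higher in Nrl-/- photoreceptors (1217). In these numbers an element is counted once for each gene whose window it met. The last class is lowest in both rod libraries, at 3.13 and 3.17.

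The CRX-type pattern CTAATCC, searched on both strands, was present in the promoter sequence of 26 of 624 genes higher in rods (4.17%), 34 of 1195 genes higher in Nrl-/- photoreceptors (2.85%) and 2.65% of all 9385. The sequence before a start of Samd11, described above, is printed as a case in which RNA and accessibility were both higher in rods, with the match, on the opposite strand, in capitals. This start is that of a RefSeq transcript inside the annotated gene, which spans chr4:156246966-156256011, so the sequence lies within the gene.
Samd11, chr4:156255343-156255592, minus strand: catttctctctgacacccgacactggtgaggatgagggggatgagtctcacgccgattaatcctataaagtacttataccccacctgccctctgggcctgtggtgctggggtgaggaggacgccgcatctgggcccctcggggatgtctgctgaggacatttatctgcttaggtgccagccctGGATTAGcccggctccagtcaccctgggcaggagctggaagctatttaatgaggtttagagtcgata
Elements there gave 81.2 and 70.7 CPM in the rod libraries and 20.4 and 22.00 CPM in the Nrl-/- libraries.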

How the data were processed

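RNA was measured in 3 rod and 3 Nrl-/- libraries and open chromatin in 2 of each. Versions of upstream tools are taken from the submitters' processing notes. For RNA the authors aligned single-end reads to GRCm38/mm10 with STAR 2.4.2a on the RefSeq gene model and deposited raw counts per gene made with HTSeq 0.6.1p1; for ATAC-seq they aligned with Bowtie2 2.2.3, filtered with SAMtools 1.3 and Picard 1.121, and counted reads in 200 bp elements with bedtools 2.24.0. Peak lists (MACS2 2.1.0) were not used. Whether counting used strand is not given in the sources used here. Reads with several matches or no gene, 41.3% to 49.2% of each RNA library, were left out.

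Counts were filtered with filterByExpr by group, scaled by TMM and fitted with edgeR 4.0.16 (limma 3.58.1, R 4.3.3), and glmTreat tested each gene against a log2 fold change of 1, with an adjusted p under 0.05 over all genes tested. The steps were tested on simulated data. Python 3.11.15, pandas 2.3.3, SciPy 1.17.1 and matplotlib 3.10.9 were used for the rest, and DESeq2 1.42.0 as an alternative. In the text the values of a group are means ± SD over n = 3 libraries. By the study's methods the replicates are biological, but which mice entered each library is not given in the sources used here, so p-values measure the spread between these libraries. Bounds and ratios for genes with few reads cover counting error only, and the floor was 3 reads per library. No list median moved when genes with no read in the lower group were set to their bound. Their direction was kept, so this could hardly move a median, and genes with any read in that group were not altered.

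Members and gene lists were chosen with earlier results of these data known. Named genes were Nrl and its 2 neighbours on each side, the 10 largest called changes in each direction with at least 5 CPM in the higher group, up to 4 called members of each list with the largest change and its member with the most reads, and, for marker lists, 1 of each kind. A part of that rule on pairs ranked by protein identity was not carried out. Uncalled relatives, members of split families, further list members and the genes with printed promoters were chosen after their values were seen. Of 24421 symbols 23204 matched RefSeq, among the tested genes 11769 had a position and 11871 an exon length, and 9385 had a promoter sequence (11980 windows of 300 bases). Some genes are not reported here. Printed sequences are from RefSeq, GRCm38.p6.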

Additional observations from a re-analysis of the deposited data

How the results depend on the processing

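The counts of genes higher in rods and in Nrl-/- photoreceptors were 816 and 1659 with RLE scaling, 852 and 1629 with upper quartile scaling, 741 and 1705 with library totals only, 894 and 1704 without a low-count filter, 761 and 1407 at a mean of at least 1 CPM, and 611 and 1373 with DESeq2. Tested against a fold change of 1 they were 3639 and 3866. Leaving out 1 library in turn gave 741 to 1074 genes higher in rods and 1509 to 1716 higher in Nrl-/- photoreceptors, the highest of both without Nrl-/- 1. Replicate numbers did not pair the samples: deviations of same-numbered libraries correlated at 0.110, 0.041 and 0.021, and rod 2 correlated best with Nrl-/- 3 (0.070). With the replicate block 873 and 1642 genes were called. No gene chosen by the rule for named genes and called in the reported fit changed direction under any of these settings. Calls of further genes in the text, such as Rims2 and Prdm2, were not compared across the settings. No erythrocyte marker was left at a mean of at least 1 CPM. With DESeq2 17 genes chosen by the rule for named genes lost their call, Hspa5 (-1.95), Syne2 (1.41), Kcnv2 (1.21) and Ctsb (-1.43) among them. With the replicate block Kcnv2 lost its call (1.23) and Malat1 gained one (1.54). For genes higher in Nrl-/- photoreceptors the median promoter difference was -0.52 with a pseudocount of 5, and it was -0.80 to -0.73 with 1 ATAC-seq library left out, beside 0.29 to 0.35 for genes higher in rods and 0.11 to 0.17 for genes not called. For elements centred within 500 bp the same medians were -0.88, 0.28 and 0.11. Reads that are amplified copies of the same molecule were not removable from these counts, and 128 called genes had 1 to 3 reads in their lower group, where the depth limits the size of the change.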

Other observations

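Chromosomes differed in the share of tested genes called higher in Nrl-/- photoreceptors and in rods, with 16.1% and 4.15% on X and 15.5% and 6.87% on chromosome 14, which carries Nrl. Within 20 Mb of Nrl 42 of 213 tested genes were higher in Nrl-/- photoreceptors and 15 in rods, and on the rest of chromosome 14 the numbers were 19 and 11 of 179. The promoter pattern TATAAA was present in 8.60% of windows of genes higher in rods, 9.78% of those higher in Nrl-/- photoreceptors and 6.67% of those not called.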
